A study of Mus musculus with 15 samples.

Results

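The proteasome is the barrel-shaped protease that degrades ubiquitin-tagged proteins, and its genes were followed here through kidneys of mice given olive oil, carbon tetrachloride (CCl4), ethanol (EtOH), or CCl4 and EtOH. Genes were taken by symbol, Psm followed by a letter from a to g and a number, and by a level of at least 1 CPM (the count scaled to library size) in 3 libraries. Of 23866 gene rows, 50 carried such a symbol and 48 reached the level. The 48 comprised 5 genes of the inducible immunoproteasome (Psmb8, Psmb9, Psmb10, Psme1 and Psme2), 31 constitutive subunits of the core and its cap, and 12 others, namely chaperones, regulators, the Psme2 copy Psme2b, and Psmc3ip. Psmc3ip is a recombination factor that matches by symbol only. Psma8, a testis core subunit, had between 1 and 10 counts per library and Psmb11, the thymus catalytic subunit, between 0 and 2, and neither reached 1 CPM in any library. Among the genes that passed, the lowest counts were those of Psmb9, between 69 and 225, and of Psmc3ip, between 69 and 138.

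The kidneys came from male C57BL/6 mice, sequenced as 14 libraries with between 16.4 and 23.5 M counts each, namely 3 in the olive oil, 4 in the CCl4, 4 in the EtOH and 3 in the CCl4+EtOH group. Olive oil mice received the vehicle by intraperitoneal injection for 6 weeks. CCl4 mice received the solvent for 6 weeks, and replicates 3 and 4 for 4 further weeks at a reduced dose. EtOH mice received olive oil for 6 weeks and then ethanol for 4 weeks. CCl4+EtOH mice received CCl4 for 6 weeks and ethanol for 4 weeks, and their titles repeat CCl4 before EtOH, so the labels do not settle whether CCl4 went on beside ethanol. By the labels, olive oil mice had no 4 further weeks. In EtOH or CCl4+EtOH against olive oil, the exposure thus cannot be told apart from those weeks. The labels do not say whether litters or cages were shared. P-values therefore measure the spread between these libraries only.

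The core particle (20S) is a stack of alpha and beta rings, and the beta subunits Psmb5, Psmb6 and Psmb7 carry its peptide-cutting sites. The cap (19S) holds ATPases, which unfold and thread the substrate, and non-ATPase subunits, which bind and remove ubiquitin. Interferon gamma and other inflammatory signals are known to induce Psmb8, Psmb9 and Psmb10, which take the places of Psmb5, Psmb6 and Psmb7 in newly made cores, and Psme1 and Psme2, which form the PA28 regulator. The immunoproteasome is abundant in leukocytes and yields peptides suited to MHC class I. When proteasome capacity falls, the transcription factor Nfe2l1 is known to induce the constitutive subunits together.

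Promoters of 4 genes that held a motif match are shown. Each is a RefSeq window of 300 bases on GRCm38.p6, from 250 bases before the transcription start to 50 bases after it, 5′ to 3′ on the gene's strand. Capitals mark matches, on either strand, to the STAT-type GAS motif TTCNNNGAA, the interferon response motif ISRE (GAAA, any 2 bases, GAAA), the antioxidant-type motif TGACNNNGC (ARE) or CCAAT. Psmb8 lies at chr17:34197945-34198244, plus strand, Psmb9 at chr17:34187281-34187580, minus strand, Psme1 at chr14:55578244-55578543, plus strand, and Psmb5 at chr14:54617946-54618245, minus strand.
Psmb8: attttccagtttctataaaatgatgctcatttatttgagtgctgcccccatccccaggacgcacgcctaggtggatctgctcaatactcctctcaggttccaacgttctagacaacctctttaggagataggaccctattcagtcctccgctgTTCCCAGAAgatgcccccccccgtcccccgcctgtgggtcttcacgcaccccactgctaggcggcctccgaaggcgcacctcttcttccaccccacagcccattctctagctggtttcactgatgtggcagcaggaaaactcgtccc
Psmb9: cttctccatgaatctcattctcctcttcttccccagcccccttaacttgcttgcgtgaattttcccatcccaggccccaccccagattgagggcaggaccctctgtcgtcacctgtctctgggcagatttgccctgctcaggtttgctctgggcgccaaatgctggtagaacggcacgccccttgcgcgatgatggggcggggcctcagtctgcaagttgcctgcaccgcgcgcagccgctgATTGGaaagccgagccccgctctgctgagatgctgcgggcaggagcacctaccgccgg
Psme1: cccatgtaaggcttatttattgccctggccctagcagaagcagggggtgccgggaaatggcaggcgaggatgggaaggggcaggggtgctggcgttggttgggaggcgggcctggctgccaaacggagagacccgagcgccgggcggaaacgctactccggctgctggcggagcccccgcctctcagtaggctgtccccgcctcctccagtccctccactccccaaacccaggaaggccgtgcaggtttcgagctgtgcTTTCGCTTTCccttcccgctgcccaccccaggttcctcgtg
Psmb5: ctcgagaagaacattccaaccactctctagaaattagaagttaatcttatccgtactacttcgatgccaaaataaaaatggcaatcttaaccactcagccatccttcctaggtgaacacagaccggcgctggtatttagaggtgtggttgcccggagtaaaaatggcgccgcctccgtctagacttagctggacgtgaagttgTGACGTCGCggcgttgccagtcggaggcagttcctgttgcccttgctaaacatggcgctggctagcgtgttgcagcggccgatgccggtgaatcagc
Psmb8 held a GAS match that begins 97 bases before the start. Psme1 held an ISRE match that begins 9 bases after it, and Psmb5 an ARE match that begins 47 bases before it. Psmb9 held only a CCAAT match, 8 bases before the start, and its window overlaps that of Tap1, the peptide transporter gene on the plus strand, at chr17:34187306-34187605.

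Each of the 4 windows shown held 1 match, but some other windows held more, such as 3 CCAAT matches in Psma3. Windows were found for 41 of the 48 members, among them all 5 immunoproteasome genes and 25 constitutive subunits. GAS stood in 1 of the 5 and 1 of the 25, against 8.3% of 32851 windows of the same length, and ISRE in 1 and 2, against 3.44%. ARE stood in 0 and 4, namely Psmb5, Psmb6, Psmc6 and Psmd12, against 12.4%. CCAAT stood in 1 and 10, against 37.4%, and the NF-kappaB-type motif (GGGA, any 4 bases, CC) in 0 and 8, against 20.7%. Neither the Psmb10 window nor those of Psme2, which are not shown, held any of these motifs. A match is a description of letters in the window. No share says anything of factor binding here.

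In olive oil kidneys the catalytic immunoproteasome genes had the lower transcript level of each pair, and protein was not measured. Per kilobase of exon (CPM per kb), Psmb9 lay at 3.35, Psmb8 at 9.01, Psmb10 at 10.7, Psme2 at 16.1 and Psme1 at 42. Their catalytic counterparts lay far above them, with Psmb5 at 75.1, Psmb7 at 114 and Psmb6 at 115 CPM per kb. The constitutive subunits ran from 19.8 for the alpha subunit Psma3 to 126 for the beta subunit Psmb4.

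All 5 immunoproteasome genes had higher mean levels after CCl4 and EtOH together than after olive oil, and 4 of them rose by the test, a quasi-likelihood F test in edgeR with Benjamini-Hochberg adjusted p under 0.05. Over all 16105 genes tested, 18.9% were called higher and 16.6% lower in that comparison. Psmb8, the chymotrypsin-like inducible subunit, measured 15.1, 14 and 15.9 CPM in olive oil and 31, 28.6 and 14.2 CPM in CCl4+EtOH. CCl4+EtOH replicates 1 and 2 stood above every olive oil library, and replicate 3 lay inside their range. The log2 change was 0.71 (SE 0.24, adjusted p = 0.0344), a 1.64-fold rise.

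Psmb10, which replaces Psmb7, measured 14.2, 14.1 and 13.7 CPM in olive oil and 22.8, 24.5 and 15.9 CPM in CCl4+EtOH. No library of one group reached the other, and the log2 change was 0.59 (SE 0.14, adjusted p = 0.00664). Psmb9, which replaces Psmb6, measured 4.81, 5.43 and 6.67 CPM in olive oil and 8.94, 8.72 and 6.65 CPM in CCl4+EtOH. Replicate 3 again lay within the olive oil range, and the log2 difference of 0.52 (SE 0.22, adjusted p = 0.0738) did not pass the threshold. Without replicate 3 it passed, at 0.64.

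The PA28 genes rose by less. Psme1, the alpha subunit, measured 49.3, 51.2 and 55.7 CPM in olive oil and 75.9, 75.6 and 59.3 CPM in CCl4+EtOH, a log2 change of 0.43 (SE 0.11, adjusted p = 0.00827) with no overlap. Psme2, the beta subunit, measured 15, 15.5 and 17.3 CPM and then 23.3, 22.2 and 17.8 CPM, a log2 change of 0.41 (SE 0.12, adjusted p = 0.0193) with no overlap. Psme2b, the fifth member that rose, measured 30.2, 28.2 and 28.6 CPM and then 42.8, 37.6 and 33.3 CPM, a log2 change of 0.39 (SE 0.09, adjusted p = 0.00579). In the annotated transcripts Psme2 and Psme2b were 99.4% identical over 794 bases, so how reads were split between the copies is uncertain. With their counts summed, an alternative chosen after seeing the data, the log2 change was 0.39.

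**Figure D1:**
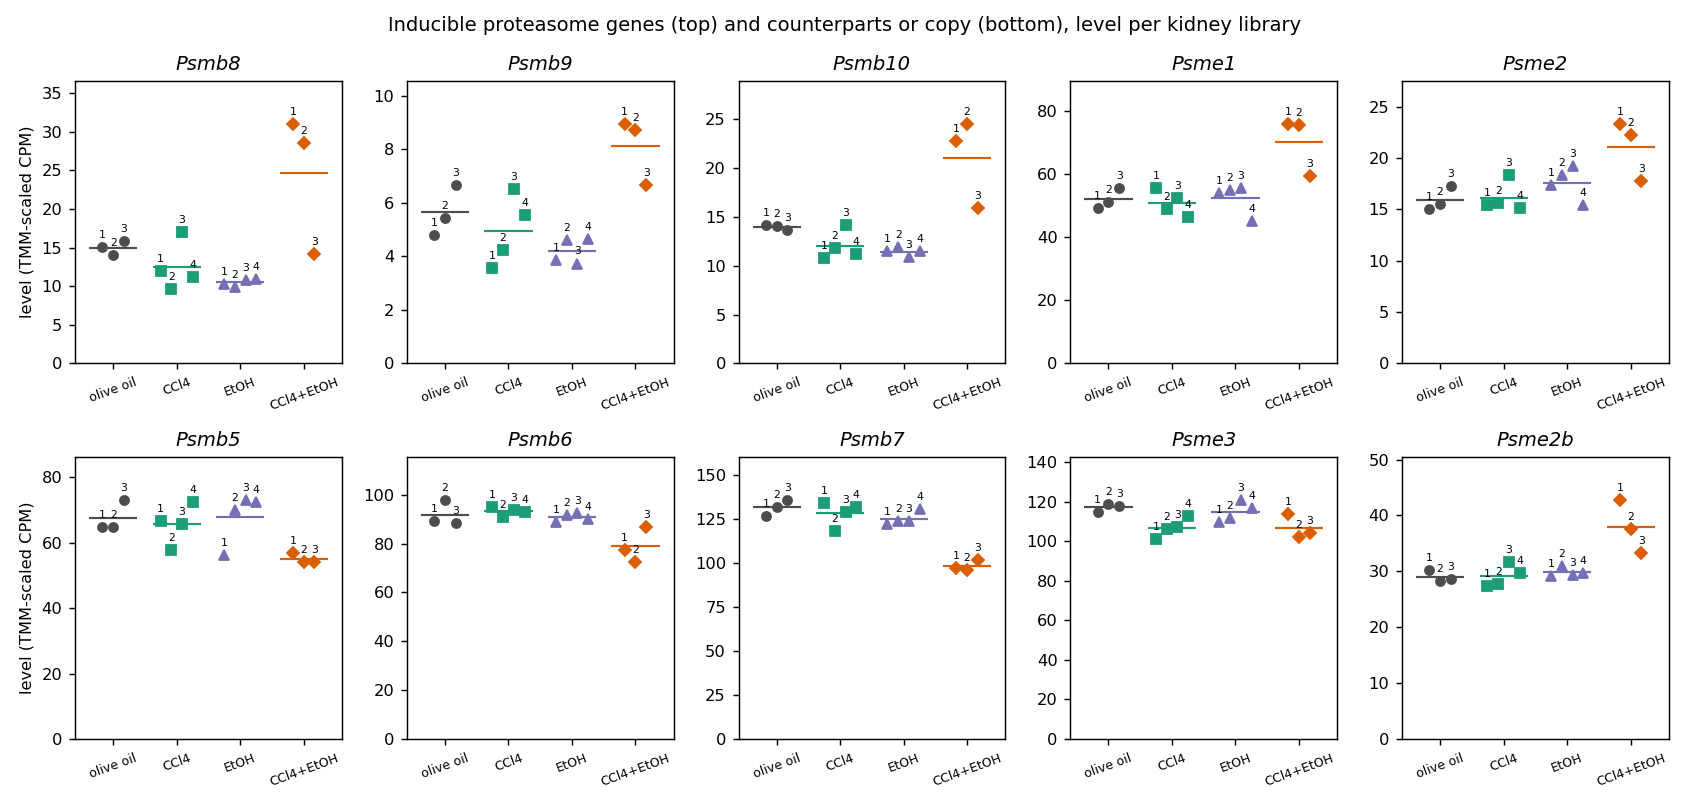
Level in TMM-scaled CPM (vertical axis, from 0) of the 5 immunoproteasome genes (top) and of Psmb5, Psmb6, Psmb7, Psme3 and Psme2b (bottom) in each kidney library. Points carry the replicate number, lines are group means, and CCl4+EtOH replicates 1 and 2 stand above all other libraries in the top row while replicate 3 lies lower.

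The constitutive catalytic subunits went the other way in the same kidneys. Psmb7, the trypsin-like subunit, measured 127, 132 and 136 CPM in olive oil and 97.1, 96.1 and 102 CPM in CCl4+EtOH, and fell by 0.42 on the log2 scale (SE 0.07, adjusted p = 7.52e-04). The groups did not overlap, and replicate 3 was the highest of the 3 CCl4+EtOH libraries. Psmb5, the chymotrypsin-like subunit, measured 64.8, 64.8 and 72.9 CPM and then 56.9, 54 and 54 CPM, a log2 change of -0.30 (SE 0.10, adjusted p = 0.0406). Psmb6, the caspase-like subunit, measured 89.3, 97.9 and 88.2 CPM and then 77.5, 72.3 and 86.7 CPM, a log2 change of -0.22 (SE 0.08, adjusted p = 0.0346). Each of these 3 genes had every CCl4+EtOH library below every olive oil library. The Psmb5 call was lost in turn without any 1 of the 3 olive oil or 3 CCl4+EtOH libraries, CCl4 replicate 3 or EtOH replicate 3, at log2 changes from -0.33 to -0.24. The Psmb6 call was lost without olive oil replicate 1 or 2, EtOH replicate 3 or CCl4+EtOH replicate 1 or 2, at -0.24 to -0.15, and the Psmb7 call was kept without any 1 of the 14.

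Of the 31 constitutive core and cap genes, 15 fell (16.6% of all genes) and none rose (18.9%), and 24 had every CCl4+EtOH library below every olive oil library. The falls numbered 9 with upper-quartile factors and 19 in DESeq2, and limma-voom called 13 lower and 1 higher. The same lack of overlap was seen in 20.8% of all genes, and the opposite order, seen in 0 of the 31, in 22.9%. The median log2 difference of the 31 was -0.22, against 0.02 over all genes, and ran from -0.42 for Psmb7 to 0.20 for Psmd8. The 6 ATPases of the cap fell together, by a median of 0.29. Psmc2 measured 134, 137 and 144 CPM in olive oil and 114, 103 and 105 CPM in CCl4+EtOH (log2 change -0.36, SE 0.09, adjusted p = 0.00852). Psmc4 measured 122, 125 and 127 CPM and then 98, 99 and 96 CPM (log2 change -0.36, SE 0.09, adjusted p = 0.0083).

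Among the 11 non-ATPase cap subunits, 5 fell (16.6% of all genes), with a median of -0.23 over all 11. With upper-quartile factors 2 fell, and in DESeq2 9. The 5 were Psmd4, a ubiquitin receptor, Psmd14, the deubiquitinase of the lid, and the scaffold subunits Psmd11, Psmd12 and Psmd13. Psmd11 measured 65.7, 66.5 and 63.7 CPM in olive oil and 54.5, 47.1 and 46.9 CPM in CCl4+EtOH (log2 change -0.40, SE 0.11, adjusted p = 0.0127). That call was lost without CCl4+EtOH replicate 2, at -0.36. Psmd3 had a difference of similar size, -0.42, with an adjusted p of 0.0566 and wide scatter, from 99.6 to 161 CPM in CCl4+EtOH. Psmd8 differed in sign from the rest, at 0.20 (adjusted p = 0.124), and measured 174, 152 and 126 CPM in CCl4+EtOH against 128 to 133 CPM in olive oil.

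The rings of the core differed in how many of their genes were called. Of the 7 constitutive beta subunits, 4 fell (Psmb4, Psmb5, Psmb6 and Psmb7), against 16.6% of all genes. The median of the 7 was -0.22, and 2 fell with upper-quartile factors. Of the 7 alpha subunits, which form the gated outer rings, none passed the edgeR test in either direction (0 at an unadjusted p under 0.05, and 0 in DESeq2), with a median of -0.10 and a range from -0.18 for Psma3 to 0.04 for Psma5. In each ring 6 of the 7 genes had a difference below 0. Every CCl4+EtOH library lay below every olive oil library in 3 alpha and 6 beta genes (20.8% of all genes). A difference between the rings was not tested. Psmb2 had a log2 difference of 0.03, with a 95% interval from -0.13 to 0.18.

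Assembly factors were mixed. Psmd9, a chaperone of the cap base, measured 33.4, 34 and 33 CPM in olive oil and 22.4, 22.2 and 26.7 CPM in CCl4+EtOH, a log2 change of -0.49 (SE 0.10, adjusted p = 0.00236). With a block for the title numbers of the libraries it stood at -0.30 and the call was lost. Psmd5, another cap chaperone, fell by 0.25 on the log2 scale, and Psmd10, the third, had a difference of 0.28 (adjusted p = 0.161). Psmg1 and Psmg2, which pair to assemble the alpha ring, each fell by 0.34 on the log2 scale. Their partners Psmg3 and Psmg4 stood at -0.05 and 0.26 and did not pass. The Psmg2 call was lost without olive oil replicate 3 or CCl4+EtOH replicate 1, at -0.28 and -0.33.

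The other regulators gave no call. Psme3, the nuclear PA28 gamma, measured 115, 119 and 118 CPM in olive oil and 114, 102 and 104 CPM in CCl4+EtOH, a log2 difference of -0.14 (adjusted p = 0.147). Psme4, the PA200 activator, measured 323, 311 and 342 CPM and then between 221 and 298 CPM, a log2 difference of -0.30 (SE 0.15, adjusted p = 0.122). The groups did not overlap for either. Psmf1, a proteasome inhibitor, stood at -0.17 (adjusted p = 0.176).

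**Figure D2:**
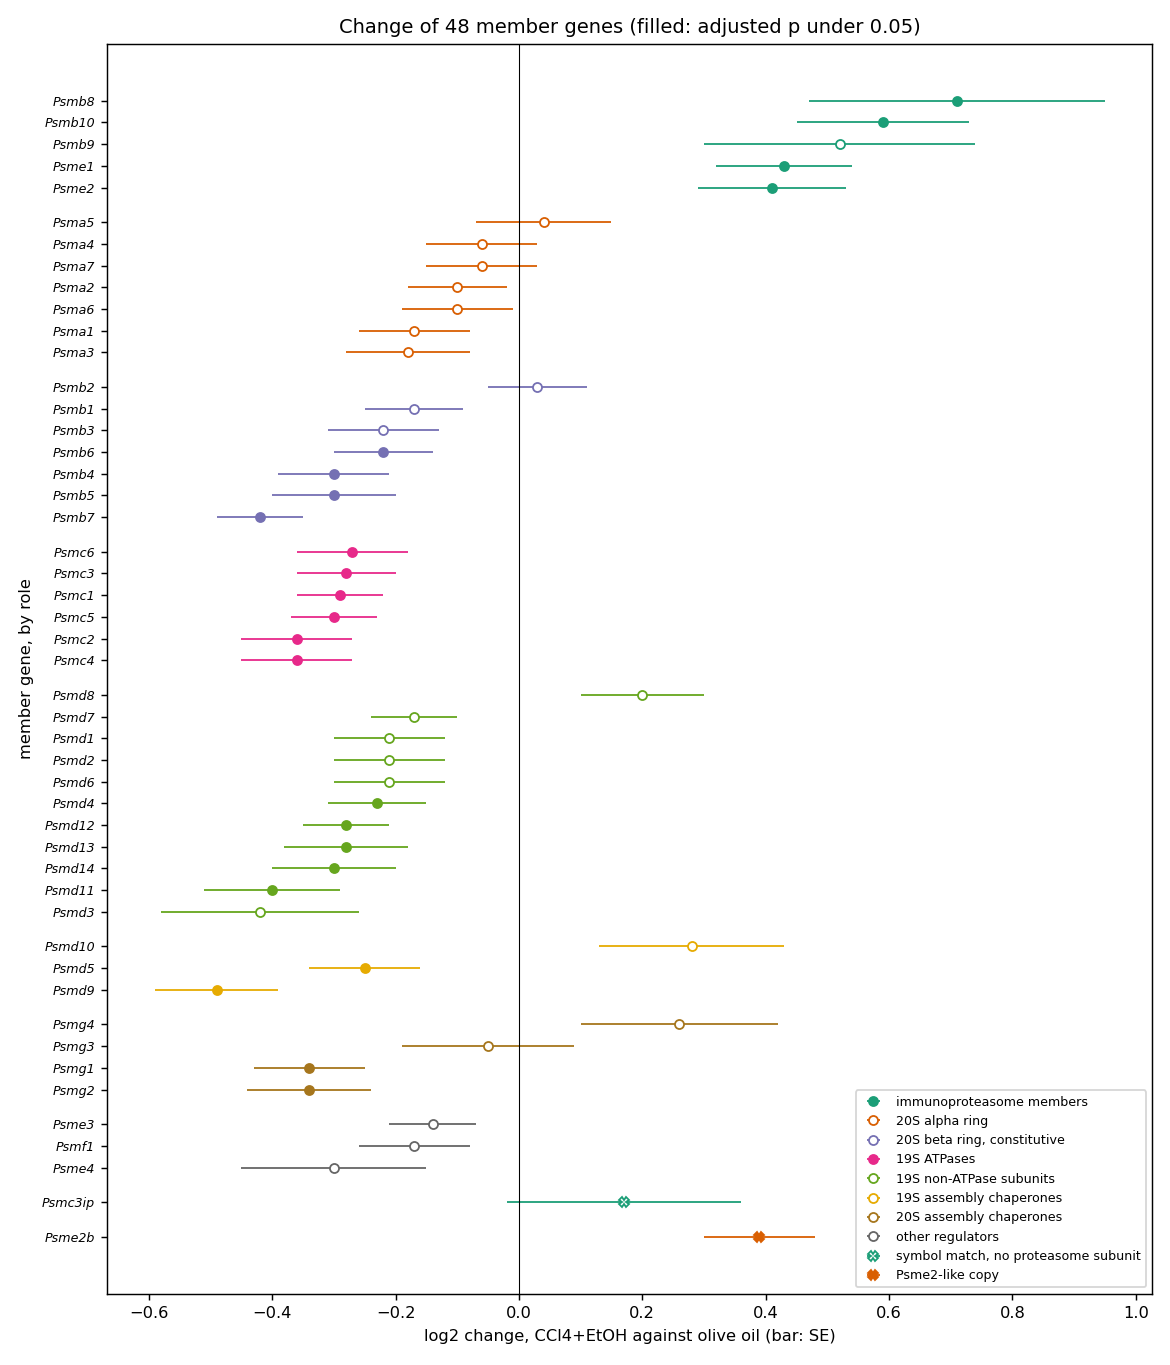
Log2 change in CCl4+EtOH against olive oil (horizontal axis) for the 48 members, arranged by role, with the SE as bars and filled points for adjusted p under 0.05. The 5 immunoproteasome genes and Psme2b lie to the right of 0, the 6 ATPases all lie to the left with filled points, and Psmd8 and Psmd10 lie apart from their groups.

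Ratios within a library do not depend on library scaling, and they changed most for the catalytic pairs. The Psmb8/Psmb5 ratio of counts was 0.233, 0.217 and 0.218 in olive oil and 0.545, 0.53 and 0.264 in CCl4+EtOH, a difference of 0.93 on the log2 scale. The Psmb10/Psmb7 ratio was 0.112, 0.106 and 0.1 and then 0.235, 0.255 and 0.156, a difference of 0.99. The Psmb9/Psmb6 ratio was 0.0538, 0.0555 and 0.0756 and then 0.115, 0.121 and 0.0767, a difference of 0.75. All 3 CCl4+EtOH libraries lay above all olive oil libraries in each pair, replicate 3 by the narrowest margin in Psmb9/Psmb6. No test was run on ratios.

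The PA28 subunits moved together, with Psme1/Psme2 between 2.88 and 3.6 in all 14 libraries. Psme2/Psme3 was 0.131, 0.129 and 0.146 in olive oil and 0.204, 0.218 and 0.171 in CCl4+EtOH, a log2 difference of 0.54. Psme1/Psme3 differed by 0.57. The sum of the 5 immunoproteasome genes over the sum of the 31 constitutive genes was 0.0303, 0.0298 and 0.0317 in olive oil and 0.0543, 0.0572 and 0.0398 in CCl4+EtOH.

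**Figure D3:**
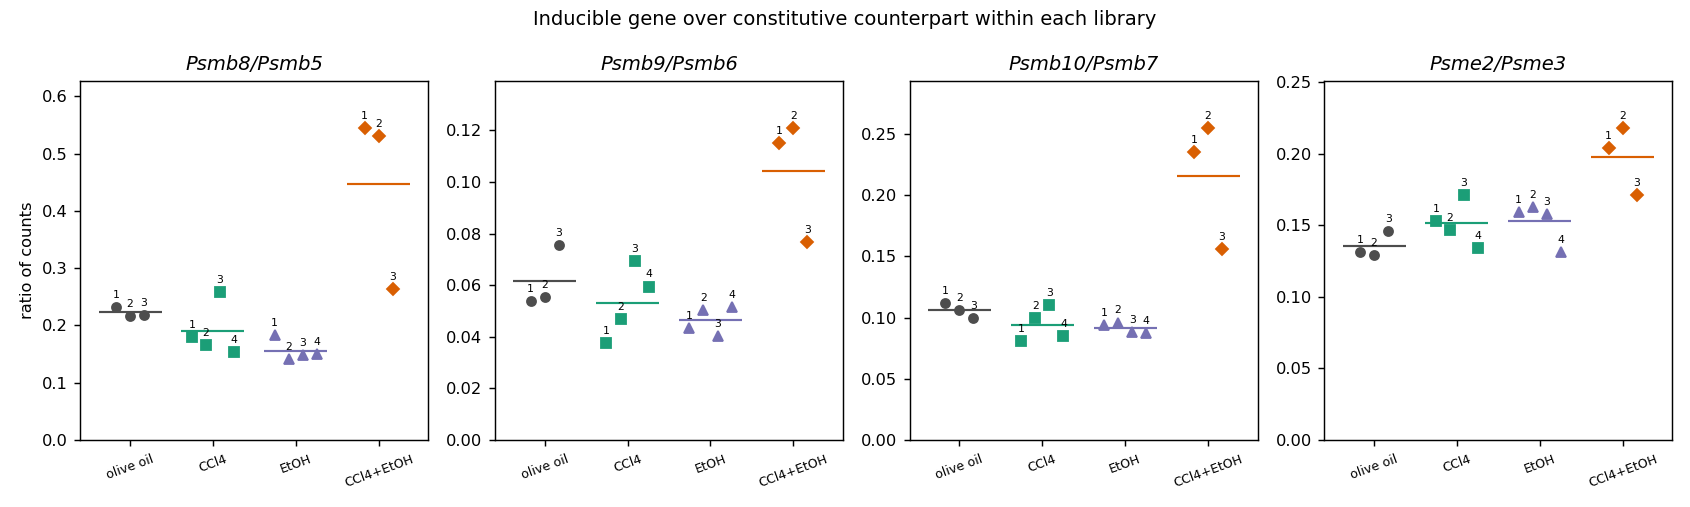
Ratio of counts of an inducible gene over its constitutive counterpart (vertical axis, from 0) in each library, for Psmb8/Psmb5, Psmb9/Psmb6, Psmb10/Psmb7 and Psme2/Psme3. Points carry the replicate number and lines are group means, and CCl4+EtOH replicates 1 and 2 lie highest in every panel.

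In CCl4+EtOH replicate 3 the inducible genes lay nearer to olive oil than in replicates 1 and 2, while the constitutive genes were about as low. This library was unlike its group beyond the members. The chi-square per gene between libraries was 159 and 131 for replicate 3 against replicates 1 and 2, and 28.1 between those. Psmb10, Psme1 and Psme2 still lay above every olive oil library in replicate 3. Its median log2 level against the olive oil mean was 0.18 over Psmb8, Psmb9 and Psmb10, where replicates 1 and 2 stood at 0.70 and 0.80. Over the 31 constitutive genes the medians were -0.18, -0.29 and -0.23 in replicates 1, 2 and 3, and 25, 28 and 26 of the 31 genes lay below the lowest olive oil library. With replicate 3 as the lone CCl4+EtOH library, an alternative chosen after seeing the data, 0 members were called higher and 1 lower, the Psmb8 difference turned to -0.08, and the constitutive median was -0.23.

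**Figure D4:**
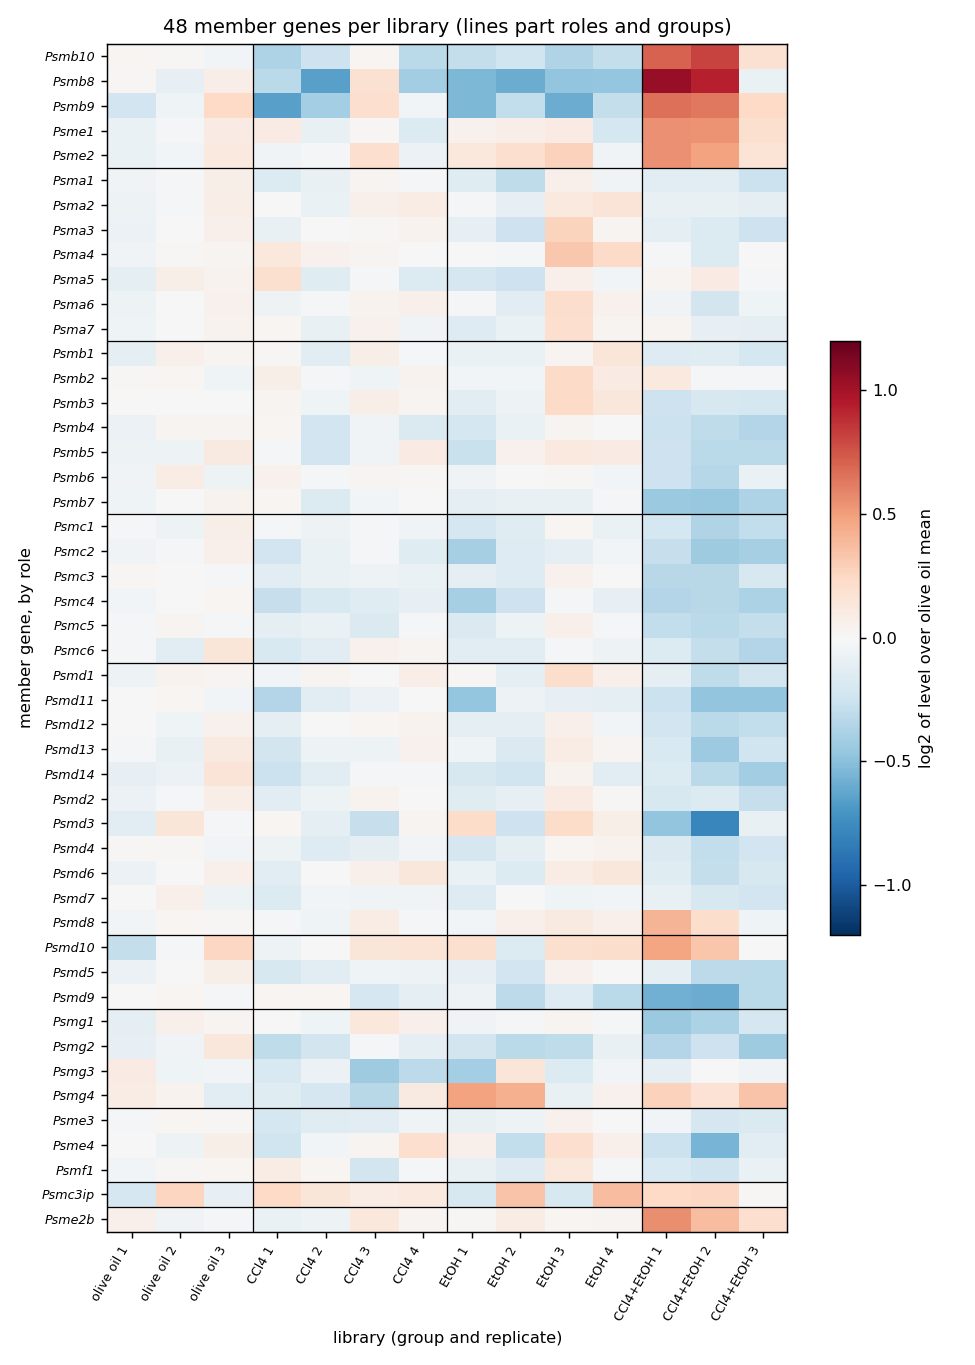
Log2 of the level over the olive oil mean (colour) for the 48 members (rows, by role) in the 14 libraries (columns, by group). The upper block is red in CCl4+EtOH replicates 1 and 2 and pale in replicate 3, whereas the ATPases and non-ATPase cap subunits other than Psmd8 lie below the olive oil mean in all 3 of those libraries.

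CCl4 alone gave no call among the 48 members, and 0% of all genes were called in either direction (3.97% at an unadjusted p under 0.05). No member passed at an unadjusted p under 0.05 or in DESeq2. Psmb8 measured 12, 9.57, 17 and 11.2 CPM after CCl4, spread on both sides of olive oil (log2 difference -0.28, 95% interval from -0.73 to 0.17). Psmb9 measured 3.58, 4.24, 6.5 and 5.53 CPM, and Psmb10 10.8, 11.8, 14.2 and 11.2 CPM. Replicate 3, of the longer schedule, was the highest CCl4 library for all 3 genes. Replicate 4, of the same schedule, was not apart from replicates 1 and 2 for Psmb8 or Psmb10. Between the schedules, with 2 libraries each, no member passed (0% of genes), and Psmb9, at a log2 difference of 0.62 (adjusted p = 0.659), was the only member with an unadjusted p under 0.05 (6.67% of genes).

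EtOH alone also gave no call among the members, against 0.0807% of genes called higher and 0.0869% lower. Psmb8 measured 10.3, 9.94, 10.8 and 10.9 CPM, Psmb9 3.87, 4.6, 3.73 and 4.63 CPM, and Psmb10 11.5, 11.9, 10.9 and 11.5 CPM. In each of the 3 genes every EtOH library lay below every olive oil library, which held for 6.69% of genes. The log2 differences were -0.52 for Psmb8 (SE 0.23, adjusted p = 0.449), -0.42 for Psmb9 (adjusted p = 0.507) and -0.29 for Psmb10 (adjusted p = 0.488). T and NK cell and dendritic cell markers were low in the same group. The median log2 difference was -0.94 over 7 T and NK cell markers and -0.99 over 5 dendritic cell markers, all 12 of them below 0, and 4 and 3 were lower at an unadjusted p under 0.05, although none passed the adjusted test in edgeR. The T and NK cell sums overlapped, at 2.43 to 6.33 CPM in EtOH and 6.18 to 8.8 CPM in olive oil. The medians of the leukocyte and macrophage markers were -0.24 and -0.20, with 3 of 8 above 0 in each list. The median of 4 B cell markers was 0.01. The part of immune cells in the low catalytic genes was not tested. Psme1 and Psme2 stood at 0.01 and 0.14, so the PA28 genes were not low beside them. The constitutive genes ran from -0.18 for Psmc4 to 0.14 for Psma4. At an unadjusted p under 0.05, 3 of the 48 were lower and 0 higher (10.4% of genes in either direction), and DESeq2 called 0.

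EtOH replicates 1 to 3 held adrenal transcripts. The 10 adrenal markers summed to 964, 776 and 1256 CPM there, to 9.26 CPM in EtOH replicate 4 and to at most 27.2 CPM in any other library. Replicate 4 had Psmb8 at 10.9 CPM and Psmb10 at 11.5 CPM, the same as or next to the other EtOH libraries. Without replicates 1 to 3 the EtOH difference of Psme2 turned to -0.04 and that of Psme1 to -0.20, neither past the threshold.

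Against EtOH, the CCl4+EtOH kidneys showed the widest gap in the catalytic immunoproteasome genes. Of the 48 members, 5 were higher (18.1% of genes) and 13 lower (16.2%). Psmb8 differed by 1.23 on the log2 scale (SE 0.23, adjusted p = 0.0015), or 2.35-fold, Psmb9 by 0.95 (adjusted p = 0.00334), Psmb10 by 0.88 (adjusted p = 5.37e-04) and Psme1 by 0.42 (adjusted p = 0.00687). Psme2, at 0.26 (adjusted p = 0.0874), did not pass, but did without CCl4+EtOH replicate 3, at 0.37, and when summed with Psme2b, at 0.32. The CCl4+EtOH libraries stood above all 4 EtOH libraries for Psmb8, Psmb9, Psmb10 and Psme1, a lack of overlap seen in 17.1% of genes, and these 4 calls were kept without any single library. The lower genes included Psmb7 at -0.35 and Psmb5 at -0.30, and the latter call was lost without EtOH replicate 2, 3 or 4 or CCl4+EtOH replicate 1 or 2, at -0.33 to -0.27. With EtOH replicate 4 as the lone EtOH library 0 members passed in either direction, and Psmb8 stood at 1.16.

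Against CCl4, 6 members were higher (18.7% of genes) and 11 lower (16.2%). All 5 immunoproteasome genes passed, with log2 changes of 0.99 for Psmb8, 0.71 for Psmb9, 0.81 for Psmb10, 0.47 for Psme1 and 0.39 for Psme2, and Psme2b was the other. Psmb7 fell by 0.38 on the log2 scale. These comparisons share the CCl4+EtOH libraries and are not independent of each other. The Psmb9 and Psme2 calls were each lost without CCl4+EtOH replicate 1, at 0.64 and 0.32, or without replicate 2, at 0.66 and 0.36.

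The CCl4 effect in the presence of EtOH was set against the effect without it by an interaction term. The effect without EtOH pools both CCl4 schedules, and ethanol cannot be told apart from the 4 further weeks. It passed for 3 of the 48 members, all higher (5.49% of genes), and for 0 lower (3.63%). They were the catalytic genes Psmb8, at 1.51 (SE 0.32, adjusted p = 0.0182), Psmb9, at 1.14 (SE 0.29, adjusted p = 0.0301), and Psmb10, at 1.10 (SE 0.19, adjusted p = 0.0097). The Psmb9 call was lost in 9 of 14 omissions of 1 library, at 1.23 or less, and the Psmb8 call without olive oil replicate 1 or CCl4+EtOH replicate 1 or 2, at 1.31 or more. Without the adrenal-bearing EtOH replicates 1 to 3 all 3 calls were lost, at 1.44, 0.98 and 1.08 for Psmb8, Psmb9 and Psmb10. Psme1 stood at 0.46 (adjusted p = 0.0637), past the threshold only without CCl4+EtOH replicate 3, at 0.56, and in DESeq2 and limma-voom, and Psme2 at 0.25 (adjusted p = 0.332). Part of the size comes from the single exposures, where Psmb8, Psmb9 and Psmb10 lay below olive oil without passing the adjusted test. In that order they stood at -0.52, -0.42 and -0.29 in EtOH and at -0.28, -0.19 and -0.22 in CCl4. Of the 31 constitutive genes 0 passed in edgeR, and 5 were lower at an unadjusted p under 0.05 (28.6% of genes in either direction). DESeq2 called 2 of the 48 members lower.

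Of 13 genes of MHC class I peptide loading, which acts downstream of the proteasome, 8 rose (18.9% of all genes), 4 did not pass and 1 fell (16.6%) in CCl4+EtOH against olive oil, with a median log2 difference of 0.52. The gene that fell was H2-T23, a class I heavy chain gene named after its values were seen, at -0.30. With CCl4+EtOH replicate 3 as the lone library 3 were called higher and 0 lower, with a median of 0.32. Tap1, whose promoter window overlaps that of Psmb9, measured 12.8, 15.1 and 17.1 CPM in olive oil and 32.6, 32 and 18.7 CPM in CCl4+EtOH (log2 change 0.89, adjusted p = 0.0019). Tap2, its partner in the transporter, measured 26.9, 26.5 and 27.4 CPM and then 47.6, 47.5 and 45 CPM (log2 change 0.79, adjusted p = 2.90e-05). Replicate 3 was thus near the other CCl4+EtOH libraries for Tap2 and apart from them for Tap1. B2m, the MHC class I light chain, rose by 1.03 and H2-K1, a heavy chain, by 0.99. In EtOH against olive oil these genes stood at -0.03 for Tap1, 0.19 for Tap2 and -0.04 for B2m, beside -0.42 for Psmb9.

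Of 15 tested genes of interferon control, 9 rose (18.9% of all genes) and none fell, with a median of 0.84. Irf1, a direct activator of immunoproteasome genes, measured 23.5, 18.6 and 22.7 CPM in olive oil and 50.1, 54.7 and 28.2 CPM in CCl4+EtOH (log2 change 1.04, adjusted p = 0.00211). The interferon gamma receptor genes Ifngr1 and Ifngr2 rose by 1.13 and 1.04. Nlrc5, the class I transactivator, measured 9.15, 8.39 and 11.3 CPM and then 20.8, 23.6 and 9.93 CPM (log2 change 0.92, adjusted p = 0.0308). Ifng itself was too low to be tested and was at 0 counts in every EtOH library.

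Of 12 tested partners of the constitutive proteasome, 1 rose and 2 fell, counts near or below the shares over all genes (18.9% higher and 16.6% lower). Adrm1, a ubiquitin receptor of the cap, measured 46.9, 44.7 and 50.1 CPM in olive oil and 29, 29.5 and 31.3 CPM in CCl4+EtOH (log2 change -0.66, adjusted p = 6.09e-04), and Ngly1, the glycanase that activates Nfe2l1, fell by 0.47. Nfe2l2, the regulator of antioxidant genes, rose by 0.47. Nfe2l1 measured 230.4, 235 and 235 CPM and then 213, 221 and 226 CPM (log2 difference -0.09, adjusted p = 0.432). Pomp, the core maturation factor, stood at -0.17 (adjusted p = 0.101). Of 16 genes of ubiquitin supply and delivery, 2 rose and 6 fell, among them Sqstm1 at -0.58, Ubqln1 at -0.56 and Nploc4 at -0.40.

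Markers of leukocytes were higher in CCl4+EtOH, as were the immunoproteasome genes. In CCl4+EtOH against olive oil 7 of 8 leukocyte markers rose (18.9% of all genes). Their summed level was 382, 350.5 and 243 CPM in replicates 1, 2 and 3, against 144 to 177 CPM in olive oil, 119 to 249 CPM in CCl4 and 99.3 to 181 CPM in EtOH. Of 8 macrophage markers 7 rose, with sums of 555, 626 and 409 CPM against 191 to 266 CPM in olive oil, 158 to 319.6 CPM in CCl4 and 154 to 219.7 CPM in EtOH. In both lists replicate 3 was the lowest CCl4+EtOH library and CCl4 replicate 3 the highest CCl4 library, as for Psmb8. The EtOH libraries did not share an order with Psmb8. EtOH replicate 2 had the highest sum of its group in both lists, 181 and 219.7 CPM, and the lowest Psmb8 level, 9.94 CPM. The 7 tested T and NK cell markers gave no call in edgeR (1 higher at an unadjusted p under 0.05), with sums of 6.18 to 8.8 CPM in olive oil, 6.63 to 7.97 CPM in CCl4, 2.43 to 6.33 CPM in EtOH and 6.86 to 10.4 CPM in CCl4+EtOH. Of 5 dendritic cell markers 1 rose (Itgax), near the share over all genes, while 3 of the 5 lay below 0. The dendritic cell median was -0.38 and the lowest value -1.16. Of 4 B cell and 5 endothelial markers none passed in edgeR (1 and 0 at an unadjusted p under 0.05). No leukocyte, macrophage, or T and NK cell marker was at 0 throughout a group. Their part in the immunoproteasome result was not tested.

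Proximal tubule markers were low in CCl4+EtOH, as were the constitutive genes. Of 8 proximal tubule markers 4 fell (16.6% of all genes). Their sums were 10297, 7229.8 and 18699 CPM in CCl4+EtOH, against 40319 to 47161 CPM in olive oil, 37190.1 to 48264 CPM in CCl4 and 23115 to 28397 CPM in EtOH. Replicate 3 had the highest tubule sum of the CCl4+EtOH libraries. Its constitutive median against the olive oil mean was -0.23, beside -0.18 and -0.29 in replicates 1 and 2. Replicate 2 was the lowest of the CCl4+EtOH libraries in both measures. The EtOH sums were low through Kap, an abundant tubule transcript named after its values were seen, which measured 25620 to 31039.6 CPM in olive oil and 9217 to 12842 CPM in EtOH (log2 difference -1.34, adjusted p = 0.0557). Over the 8 markers the median log2 difference in EtOH was 0.01, with 5 of 8 above 0, and the constitutive genes had a median of -0.03. In bulk tissue, fewer cells of a type and less RNA per cell cannot be told apart. The part of tubule content in the constitutive result was not tested.

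**Figure D5:**
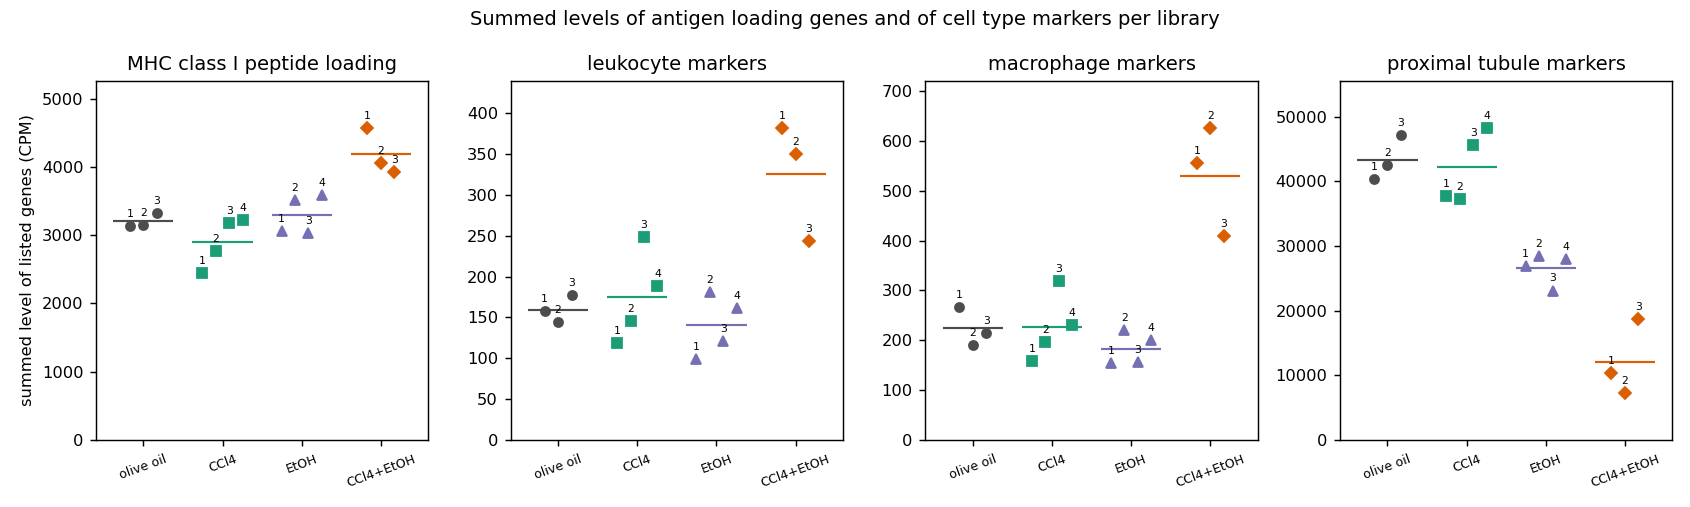
Summed level in CPM (vertical axis, from 0) of 13 MHC class I loading genes and of 8 leukocyte, 8 macrophage and 8 proximal tubule markers in each library. Points carry the replicate number and lines are group means, and CCl4+EtOH replicate 3 is nearer to the other groups than replicates 1 and 2 for the leukocyte, macrophage and tubule markers, with its leukocyte sum of 243 CPM just under the 249 CPM of CCl4 replicate 3.

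The count of 5 rises against olive oil fell to 3 without olive oil replicate 1 or 2 or CCl4+EtOH replicate 1 or 2 and reached 8 without CCl4+EtOH replicate 3. The count of 19 falls dropped to 11 without olive oil replicate 3 and to 10 without CCl4+EtOH replicate 2. All olive oil libraries have title numbers under 270 and all CCl4+EtOH libraries higher ones, and with a block for that split 1 rise (Psme1) and 17 falls were called. Within a group the split occurs only in CCl4, where it equals the 6-week and the longer schedule, and in EtOH, where replicate 1 alone lies under 270. The block thus rests on those groups, and title number cannot be told apart from CCl4 schedule in it. The Psmb8 call was lost without any 1 olive oil library or CCl4+EtOH replicate 1 or 2, at 0.53 to 0.75, and the Psme2 call without olive oil replicate 1 or 2 or CCl4+EtOH replicate 1 or 2, at 0.34 to 0.38, whereas the Psmb10 and Psme1 calls were kept without any single library. The use of strand in counting is not stated, so reads of an overlapping gene may be counted in 34.9% of Psmb7 exons (Nek6), 12.6% of Psmb9 exons (Tap1) and 11.1% of Psmb8 exons (Gm20496). Of the 50-base windows of the longest annotated transcript, 57.1% for Psmb5, 55.4% for Psma5 and 55.8% for Psmb3 also occur in other annotated genes, so their counts are less certain.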

How the data were processed

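RNA-seq of kidneys was deposited by the authors as raw read counts per gene symbol. GSNAP and mm9 are named per the submitters' processing notes, and the counter, its annotation and its strand setting are not stated there. Of 15 samples 14 were analysed, and 1 from the olive oil group was not used here. The 27 rows with a date for a symbol, at most 0.209% of counts, were left out. Tests were run in edgeR 4.0.16 under R 4.3.3 (filterByExpr, TMM, robust quasi-likelihood F test, all 14 libraries in 4 groups, Benjamini-Hochberg over 16105 genes, threshold 0.05). SE is the log2 change over the square root of F, and CPM are TMM-scaled. Values per kb use exon lengths of GENCODE M21. No pair of libraries agreed within sampling noise (chi-square per gene at least 10.3).

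Members and lists were chosen with earlier results of these data known. Full values were given for the immunoproteasome genes, their counterparts, and the other members with the largest rise (Psme2b alone) and the 5 with the largest fall, and of other lists for up to 4 genes by smallest p plus Tap1, Tap2, Irf1, Nlrc5, Nfe2l1, Nfe2l2 and Pomp; some listed genes are not reported here. Any other member could be named. Alternatives were other scalings and filters, DESeq2 1.42.0, limma-voom (limma 3.58.1), 5 groups, only the groups compared, a title-number block, libraries left out, and, chosen after seeing the data, CCl4+EtOH replicate 3 alone and Psme2 summed with Psme2b. The pipeline was tested on simulated data.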

Additional observations from a re-analysis of the deposited data

Results flagged for a closer look

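For 3 members the CCl4 effect differed between mice with and without EtOH by the interaction test: 1.51 for Psmb8, 1.14 for Psmb9 and 1.10 for Psmb10 on the log2 scale. All 3 calls were lost without EtOH replicates 1 to 3, that of Psmb9 also in 9 of 14 omissions of 1 library and that of Psmb8 in 3. A library stood far from the rest of its group in 4 of 46 groups examined, and chance alone marks about 5% of groups. Psme1 measured 45 CPM in EtOH replicate 4 and the Psme2/Psme3 ratio 0.131 in the same library, which lacked the adrenal transcripts of the other EtOH libraries. Psme2 measured 18.3 CPM in CCl4 replicate 3, and Psmd11 measured 47.4 CPM in EtOH replicate 1.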

How the results depend on the processing

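No paired analysis was possible because the labels give the groups no shared replicate numbers. Against olive oil, CCl4+EtOH had 5 members higher, but 8 with limma-voom, 1 with the title-number block, 1 with only the groups compared and 0 with CCl4+EtOH replicate 3 alone, and 19 lower, but 12 with upper-quartile factors, 8 with only the groups compared and 1 with replicate 3 alone. With 1 library left out the counts ran from 3 to 8 higher and from 10 to 20 lower. Against EtOH, 5 higher became 0 without EtOH replicates 1 to 3 and 0 with replicate 3 of CCl4+EtOH alone, and 13 lower became 5 with upper-quartile factors, 20 with the block, 2 with only the groups compared, 0 without EtOH replicates 1 to 3 and 0 with replicate 3 alone. Leaving out 1 library gave 4 to 7 higher and 3 to 15 lower, with 4 lower without EtOH replicate 3, 6 without EtOH replicate 4 or CCl4+EtOH replicate 1 and 3 without CCl4+EtOH replicate 2. Against CCl4, 6 higher became 0 with replicate 3 alone, and 11 lower became 6 with upper-quartile factors, 17 in DESeq2, 6 with no filter, 6 with only the groups compared and 0 with replicate 3 alone. Leaving out 1 library gave 4 to 7 higher and 4 to 12 lower, with 7 lower without olive oil replicate 1 or 2 or CCl4 replicate 3, 6 without CCl4 replicate 4, 5 without CCl4+EtOH replicate 1 and 4 without CCl4+EtOH replicate 2. In the interaction 3 higher became 5 with limma-voom, 0 without EtOH replicates 1 to 3 and 0 with replicate 3 alone, and 0 lower became 1 with DESeq2 size factors, 2 in DESeq2, 6 with limma-voom and 1 with the filter at 1 CPM. Leaving out 1 library gave 1 to 5 higher and 0 to 4 lower, with 1 higher without olive oil replicate 1 or CCl4+EtOH replicate 1 or 2, and 5 higher and 4 lower without CCl4+EtOH replicate 3.

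The interaction call of Psmb8 was lost without olive oil replicate 1 or CCl4+EtOH replicate 1 or 2, at 1.31 or more, that of Psmb9 without any of 9 single libraries, at 1.23 or less, and that of Psmb10 with none left out singly. With replicate 3 alone the Psmb8 difference from olive oil was -0.08. Differences close to 0 changed sign. Psme1 in CCl4 against olive oil was 0.00 with the block, and in EtOH -0.20 without EtOH replicates 1 to 3. Psme2 was -0.02 in CCl4 with the block and -0.04 in EtOH without EtOH replicates 1 to 3. With libraries left out singly, Psme1 ran from -0.08 to 0.02 in CCl4 and from -0.03 to 0.08 in EtOH, and Psme2 from -0.05 to 0.08 in CCl4. The ratio of the 5 summed genes to the constitutive sum changed by -0.06 in EtOH in place of -0.52, -0.40 and -0.21 for the catalytic pairs and 0.17 for Psme2/Psme3, and by -0.05 in CCl4 in place of 0.16. The causes were not tested. Scaling moved the median of all genes to at most 0.07, and under each scaling the 5 immunoproteasome genes stayed above 0 and 28 of 31 constitutive genes below 0 against olive oil. Where a group keeps 1 library, its variance is taken from the remaining groups. The fewest counts of any member in a library were 69, for Psmb9 and Psmc3ip.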
